A study of Rattus norvegicus with 23 samples.

Results

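Heat shock proteins and chaperones of the rat dorsal root ganglion (DRG) were followed from 4 to 296 h after a conditioning lesion. Members were all probes whose annotated gene symbol belonged to the Hsp, Dnaj, Pdia, Bag or Cct families, or was Calr, Canx, St13, Hyou1 or Stip1. This gave 37 of 5088 probes and 33 of 4153 named genes. Of these, 20 probes (18 genes) stood for cytosolic chaperones and cochaperones, 3 probes (3 genes) for mitochondrial ones and 11 probes (10 genes) for those of the endoplasmic reticulum (ER). The other 3 probes matched by spelling only, since Hspg2 encodes the matrix proteoglycan perlecan and Hspbap1 a protein that binds a small heat shock protein. No probe analysed here was annotated with a Cct gene of the cytosolic chaperonin. In the lesioned group, Long-Evans rats had the sciatic nerve cut at postnatal day 20 to 24 and survived for 4, 8, 12, 18, 24, 48, 148 or 296 h before ganglia L4 and L5 were taken. The comparison group was intact ganglia. Every array carried lesioned RNA in Cy5 against intact RNA in Cy3, and 23 arrays were made, 3 for every time except 296 h, which had 2. The dyes in the labels, rather than a stated direction, were used to read the deposited ratios as lesioned over intact. The labels give no animal for the intact RNA, do not say that replicate arrays came from separate animals, and in places call the material cultured DRG cells. A p-value here therefore reflects the spread from array to array, which may be technical.

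Chaperones bind unfolded or newly made proteins and keep them from aggregating. Small heat shock proteins hold partly unfolded clients, HSP70 proteins with their DNAJ partners refold them, HSP90 matures kinases and receptors, and the HSP60 and HSP10 pair folds imported proteins in mitochondria. In the ER, calreticulin, calnexin and protein disulfide isomerases fold secreted and membrane proteins. The heat shock response raises the cytosolic set through heat shock factors, and the unfolded protein response raises the ER set. In sensory neurons Hspb1, also called HSP27, is known as an injury-induced protein that supports survival and the cytoskeleton of the axon.

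All values below are ratios of lesioned to intact signal, so a ratio above 1 means more signal in lesioned ganglia. Differences are on the log2 scale with the standard error (SE) of the fit, and a probe was called at an adjusted p under 0.05 over all probes tested. Between 77 and 143 of the 5088 probes lacked a value on 17 arrays, called full here, and between 735 and 3025 on the other 6, called sparse, namely every array of 148 h, replicates 2 and 3 of 48 h and replicate 2 of 296 h. The sparse arrays varied 2.18 times as much and weighed less in the fit, so the values at 48 and 296 h lean on replicate 1. Brightness was not used here, so how far a probe stood above background is unknown and precision is limited by the number of arrays. Of the members, 21 probes were measured on all 23 arrays and the least covered on 17. The injury transcription factor Atf3 rose at 8, 12, 18 and 24 h (log2 1.38 to 2.61), whereas probe 52E03 of Sprr1a, another injury gene, fell at 4, 8, 12 and 24 h (log2 -1.19 to -0.85). Of the 7 injury genes used to check the labels, 4 of 6 tested were higher and none lower at 48 h (median log2 1.73) and at 148 h (2.26), and 3 of 5 were higher at 296 h (1.52). Over all probes 11.3%, 5.87% and 3.49% were called at these times, in either direction. Macrophage markers, of which 7 of 11 listed genes were on the array, averaged log2 0.48 to 1.95 on 7 late arrays (48 to 296 h) and -0.25 to 0.57 on 9 early arrays (4 to 12 h). On the sparse arrays these averages rest on 2 to 5 probes, the 1.95 on 3, and replicate 1 of 148 h had none. Late and early averages of this list thus cover unlike sets of probes. Neuronal markers, 9 of 10 listed genes, averaged -1.09 to -0.10 on 8 late arrays and -0.26 to 0.13 on 9 early arrays. At 18 and 24 h both lists stayed within their early range, at -0.004 to 0.33 for macrophages and -0.12 to 0.04 for neurons. Schwann cell markers averaged -0.43 to 0.21 on 8 late arrays, below 0 on all 5 arrays of 148 and 296 h, and 0.07 to 0.34 on 9 early arrays. Of their probes 2 of 5 were called lower late against early, beside 2.79% of all probes. At 18 and 24 h the Schwann cell list averaged -0.25 to 0.26 on 6 arrays and so reached below its early range. Its median there was 0.02, against 0.19 early, and 0 of 8 probes were called in that difference, beside 0.162% of all probes. Lists for satellite glia, fibroblasts, endothelium, blood and muscle overlapped between early arrays and both later spans. In bulk ganglia fewer cells of a type and less RNA per cell cannot be told apart. The part of these cell types in the results from 18 h on was not tested.

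Few members were called at any time. At 4, 12 and 296 h no member was called by limma, and over all probes 2.09%, 1.02% and 3.49% were called. An unadjusted p under 0.05 was found for 8 of 37, 10 of 37 and 7 of 27 members at these times. Over all probes tested 18.2%, 12.7% and 14.5% had such a p. A single member, 1 of 37, was called at 8 h against a background of 1.04% of probes, 3 of 37 at 18 h against 1.4%, and 7 of 37 at 24 h against 6.59%. Those at 24 h were 2 higher, beside 2.43% of all probes, and 5 lower, beside 4.15%. At 48 h 4 of 35 members were called against 11.3% of all probes, and at 148 h 2 of 31 against 5.87%, so these shares were near the background. The median member stood at log2 -0.06 to 0.01 from 4 to 48 h, with the median of all probes at 0.00 to 0.03, and at 0.26 and 0.21 at 148 and 296 h, with all probes at 0.04 and -0.02. Over the 10 tests, the Hspb1 probes made 12 of the 23 calls of members.

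**Figure D1:**
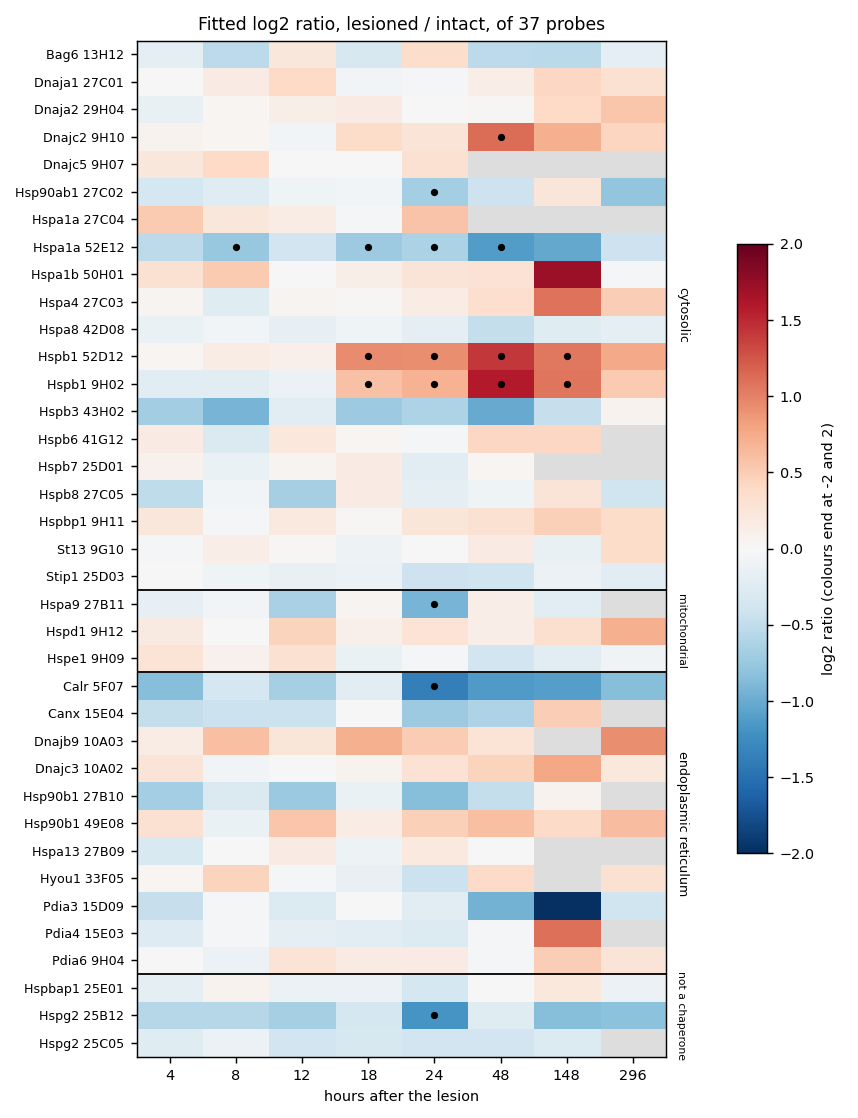
Fitted log2 ratio of lesioned to intact signal for the 37 member probes (rows, by compartment) at the 8 times in h after the lesion (columns); red is higher and blue lower in lesioned ganglia, grey had fewer than 2 arrays, and a dot marks an adjusted p under 0.05. The 2 Hspb1 probes carry dots at 18, 24, 48 and 148 h.

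Hspb1 was the member that rose most clearly, and it was measured by 2 probes. Its gene lies on chromosome 12. The promoter from RefSeq (GRCr8, chr12:26432252-26432551, minus strand) is shown because Hspb1 carried the main result; it covers 250 bases before and 50 after the start, and capitals mark matches to GAANNTTC, a pair of heat shock units:
Hspb1: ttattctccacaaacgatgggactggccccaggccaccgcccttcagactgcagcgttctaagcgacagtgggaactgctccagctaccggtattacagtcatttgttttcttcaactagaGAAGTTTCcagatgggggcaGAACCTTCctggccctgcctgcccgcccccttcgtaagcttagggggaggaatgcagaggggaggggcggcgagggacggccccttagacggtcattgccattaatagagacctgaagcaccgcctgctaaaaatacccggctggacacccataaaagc
Probe 9H02 gave ratios of 0.875, 0.796 and 0.917 at 4 h, 0.877, 0.870 and 0.825 at 8 h, and 0.878, 0.919 and 0.981 at 12 h. The ratios were 1.38, 1.64 and 1.51 at 18 h, 1.80, 1.94 and 1.24 at 24 h, and 2.82, 3.18 and 3.81 at 48 h. They were 1.99, 2.19 and 2.09 at 148 h and 1.43 and 1.49 at 296 h. Every array up to 12 h thus lay below 1, every later array lay above 1, and the arrays at 48 h were the highest. The fit put this probe at log2 0.59 ± 0.12 at 18 h (limma, adjusted p = 0.0176), 0.70 ± 0.12 at 24 h (adjusted p = 0.00205), 1.58 ± 0.17 at 48 h (adjusted p = 1.46e-05) and 1.06 ± 0.24 at 148 h (adjusted p = 0.0149). At 296 h it stood at 0.53 ± 0.17 and was not called (adjusted p = 0.118).

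The other Hspb1 probe, 52D12, gave 1.05, 0.920 and 1.11 at 4 h, 1.23, 1.07 and 1.01 at 8 h, and 0.999, 0.946 and 1.32 at 12 h. It gave 2.23, 1.82 and 1.78 at 18 h, 1.81, 1.67 and 2.30 at 24 h, and 2.87, 2.34 and 2.19 at 48 h. The arrays at 148 h read 2.27, 2.59 and 1.52, and those at 296 h 1.90 and 0.951. All arrays from 18 to 148 h lay above all arrays from 4 to 12 h, and only the sparse array at 296 h fell back into the early range. Its effect was log2 0.95 ± 0.14 at 18 h (limma, adjusted p = 0.00127), 0.93 ± 0.14 at 24 h (adjusted p = 0.00104), 1.42 ± 0.21 at 48 h (adjusted p = 0.000247) and 1.05 ± 0.30 at 148 h (adjusted p = 0.0448). The probes had the same sign on 16 of 23 arrays, because 9H02 lay below 1 and 52D12 mostly near or above it up to 12 h.

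**Figure D2:**
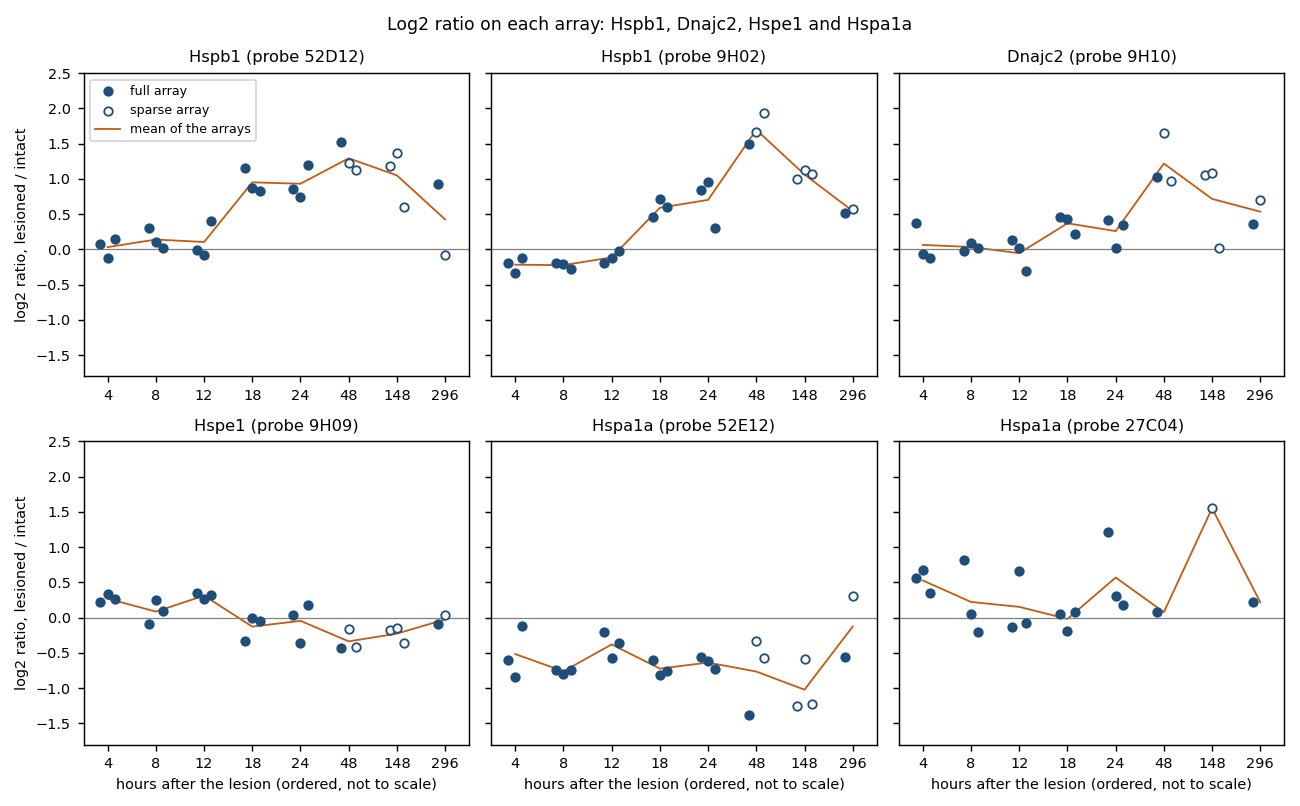
Log2 ratio of lesioned to intact signal on each array (points; filled for full arrays, open for sparse arrays) with the mean of the arrays (line) against h after the lesion, equally spaced, for both Hspb1 probes, Dnajc2, Hspe1 and both Hspa1a probes. Hspb1 steps up between 12 and 18 h on both probes, while the 2 Hspa1a probes lie mostly on opposite sides of 0.

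A difference between times cancels a dye effect of a probe that stays constant, which a single time does not, since no array exchanged the dyes. At 18 and 24 h the Hspb1 ratio was 1.78 times that at 4 to 12 h on probe 9H02 (log2 0.83 ± 0.11, limma, adjusted p = 0.00151) and 1.80 times on probe 52D12 (0.85 ± 0.13, adjusted p = 0.00408), over 15 arrays. On 9H02 the 6 arrays at 18 and 24 h covered log2 0.31 to 0.96 and the 9 early arrays -0.33 to -0.03, and on 52D12 they covered 0.74 to 1.20 and -0.12 to 0.40. Only 0.162% of all probes, 8 of 4946, were called in this difference, and 2 of 37 members were, both for Hspb1. Only 6 of 4542 probes on all 15 arrays, 0.132%, had every array of 18 and 24 h above every early array, again with both Hspb1 probes among them. The other 6 called probes were for Gadd45a (1.62), Atf3 (1.29), Vgf (1.16), Stmn4 (1.11), Reg3b (0.74) and Tmprss11d (0.64), all higher. Leaving out any 1 of these 15 arrays kept both calls, but the 52D12 call was lost with equal weights (adjusted p = 0.082) and with scaling of the arrays (1.21, adjusted p = 0.0632). Leaving out all arrays with 1 replicate number ended both, at log2 0.72 to 0.95 for 9H02 (adjusted p = 0.0978 to 0.588) and 0.83 to 0.86 for 52D12 (adjusted p = 0.257 to 0.381).

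Late arrays kept Hspb1 above the early level. In the mean of 48, 148 and 296 h against 4, 8 and 12 h, probe 9H02 was higher by log2 1.24 ± 0.13 (limma, adjusted p = 7.08e-06) and probe 52D12 by 0.98 ± 0.16 (adjusted p = 0.000942). On 9H02 the 8 late arrays covered log2 0.52 to 1.93, apart from the 9 early arrays at -0.33 to -0.03, and on 52D12 the late arrays covered -0.07 to 1.52, which overlapped the early arrays at -0.12 to 0.40. In this difference 4 of 25 members were called, where 7.72% of 2331 probes were, and of these 3 were higher (background 4.93%) and 1 lower (background 2.79%). The macrophage and neuronal markers given above moved in the same arrays. The 9H02 calls at 48 h and in this difference held with each array left out. Without replicate 1 at 48 h, the full array of that time, 52D12 stood at 1.18 with adjusted p = 0.116 at 48 h. At 148 h both probes rested on sparse arrays, and the call was lost without replicate 1 or 3 on 9H02 (1.10 and 1.06, adjusted p = 0.0655 and 0.0538) and without any array on 52D12 (0.89 to 1.28, adjusted p up to 0.19). At 18 h the 9H02 call was lost without replicate 2 or 3 (0.53 and 0.59, adjusted p = 0.173 and 0.192).

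The probes whose 8 time means were most like those of Hspb1 were named by Pearson correlation over 2327 probes measured on 2 or more arrays of each time, given here as a description over 8 points that share their arrays. For 9H02 these were Vgf, a neuropeptide precursor (r = 0.993), Dnajc2 (0.952) and Fabp5, a fatty acid binding protein (0.947). For 52D12 they were Vgf (0.943), the proteasome receptor Adrm1 (0.906) and the aldehyde dehydrogenase Aldh3a2 (0.900), besides the other Hspb1 probe (0.942).

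Of the other small heat shock proteins, none was called in any test. Hspb8, which works with a BAG cochaperone in clearing misfolded protein, was the next highest cytosolic member at 18 and 24 h against 4 to 12 h, at log2 0.40 ± 0.16 (unadjusted p = 0.0214). Its arrays read 0.932, 1.40 and 1.08 at 18 h and 0.822, 0.974 and 0.864 at 24 h, against 0.516 to 1.13 on the early arrays, so the groups overlapped. Hspb3, known from muscle, had 6 of 6 arrays at 18 and 24 h below 1 (log2 -1.11 to -0.13) and 8 early arrays below 1 as well (-1.98 to 0.01), and its difference was -0.06 ± 0.26. Hspb6 and Hspb7, further members of the family, stood at -0.02 ± 0.23 and -0.03 ± 0.16. Hspb1 therefore had the only probes past the threshold among the 5 member genes with an Hspb symbol of this family.

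Dnajc2, a DNAJ protein that acts with HSP70 at the ribosome, rose at 48 h. Its ratios were 1.30, 0.957 and 0.916 at 4 h, 0.989, 1.07 and 1.02 at 8 h, and 1.09, 1.01 and 0.809 at 12 h. They were 1.38, 1.35 and 1.16 at 18 h, 1.33, 1.02 and 1.27 at 24 h, 2.05, 3.13 and 1.97 at 48 h, 2.08, 2.12 and 1.01 at 148 h and 1.29 and 1.63 at 296 h. The 48 h arrays lay above all earlier arrays, and 1 sparse array at 148 h remained near 1. The effect at 48 h was log2 1.12 ± 0.20 (limma, adjusted p = 0.00165), and late minus early was 0.74 ± 0.15 (adjusted p = 0.00700), with 8 of 8 late arrays above 0 at log2 0.01 to 1.65 and early arrays at -0.31 to 0.38. Without replicate 1 at 48 h the first value was 1.31 and no longer called (adjusted p = 0.0733). The second kept its call with each single array left out and lost it without the sparse arrays (0.69, adjusted p = 0.113) and without all arrays numbered 1 or 2 (0.91 and 0.63, adjusted p = 0.0541 and 0.134). At 18 and 24 h Dnajc2 stood 0.30 ± 0.13 above 4 to 12 h and was not called (unadjusted p = 0.0323).

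The inducible HSP70 genes gave unlike answers by probe. Hspa1a probe 52E12 gave 0.659, 0.560 and 0.925 at 4 h, 0.596, 0.575 and 0.600 at 8 h, 0.868, 0.673 and 0.776 at 12 h, and 0.657, 0.570 and 0.594 at 18 h. It gave 0.679, 0.651 and 0.601 at 24 h, 0.383, 0.795 and 0.670 at 48 h, 0.419, 0.667 and 0.428 at 148 h and 0.677 and 1.24 at 296 h. It was thus below 1 on 22 of 23 arrays at every stage. It was called lower at 8 h (log2 -0.76 ± 0.15, limma, adjusted p = 0.0179), 18 h (-0.72 ± 0.15, adjusted p = 0.0211), 24 h (-0.64 ± 0.15, adjusted p = 0.0176) and 48 h (-1.11 ± 0.22, adjusted p = 0.00318). Each of these calls except that at 48 h was lost with any array of its time left out (log2 -0.78 to -0.59, adjusted p = 0.0578 to 0.21), and that at 48 h without replicate 1 (-0.45, adjusted p = 0.686). Its differences between times were not called, at -0.13 ± 0.14 for 18 and 24 h and -0.30 ± 0.17 for late arrays, both against 4 to 12 h.

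The other Hspa1a probe, 27C04, had the same sign as 52E12 on only 4 of 18 arrays. It covered log2 -0.19 to 1.22 at 18 and 24 h and -0.20 to 0.82 at 4 to 12 h, with a difference of -0.03 ± 0.21. Hspa1b, a near-identical copy of Hspa1a, covered -0.12 to 0.45 at 18 and 24 h and -0.48 to 0.95 early, a difference of -0.09 ± 0.18. Whether these probes tell the copies apart was not tested, so the direction of Hspa1a is uncertain. The constitutive HSP70, Hspa8, differed little between 18 and 24 h, at log2 -0.44 to 0.03, and early arrays, at -0.40 to 0.06 (difference -0.03 ± 0.11, 95% interval -0.26 to 0.21). It lay below 0 on 18 of 23 arrays and stood at -0.47 ± 0.17 at 48 h without being called (limma, adjusted p = 0.0902). Hspa4, an HSP70-related exchange factor, was higher late than early by 0.68 ± 0.28 without being called (adjusted p = 0.155), with late arrays at -0.96 to 2.92, the top of which were sparse, and early arrays at -0.34 to 0.33.

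Among HSP90 and the cochaperones of the cytosol, only Hsp90ab1 was called besides Dnajc2. Hsp90ab1, the constitutive cytosolic HSP90, read 0.684, 0.755 and 0.476 at 24 h, and between 0.581 and 1.07 on the 12 arrays from 4 to 18 h. It was called lower at 24 h (log2 -0.68 ± 0.20, limma, adjusted p = 0.0492), where all 3 arrays were below 1, and was lost with any of these arrays left out (-0.81 to -0.48, adjusted p = 0.0656 to 0.328) and with the replicate number as a block. Stip1, which passes clients between HSP70 and HSP90, stood at -0.42 ± 0.14 at 24 h (unadjusted p = 0.00737). St13, another HSP70 cochaperone, had fitted values of -0.15 to 0.36, the highest at 296 h, where its arrays read log2 0.29 and 0.73. Dnaja1, a DNAJ partner of Hspa8, was the lowest cytosolic member at 18 and 24 h against 4 to 12 h, at -0.23 ± 0.13, and was not called. It then had 8 of 8 late arrays above 0 (log2 0.07 to 1.18), within reach of its early arrays at -0.25 to 0.73, and stood 0.10 ± 0.15 higher late than early. Dnaja2, a close relative, stood at 0.33 ± 0.15 late against early (unadjusted p = 0.0470), with late arrays at -0.38 to 1.17 and early arrays at -0.41 to 0.31. Hspbp1, an exchange factor that releases HSP70 clients, also had 8 of 8 late arrays above 0, at 0.06 to 1.14, against -0.28 to 0.41 early, and a difference of 0.25 ± 0.18. Dnajc5, the cysteine string protein of synaptic vesicles, was measured on only 2 late arrays and stood at -0.06 ± 0.14 at 18 and 24 h against 4 to 12 h. Bag6, a chaperone for tail-anchored proteins, had 8 of 8 late arrays below 0 (log2 -1.38 to -0.09) but early arrays at -0.78 to 0.87, with a difference of -0.26 ± 0.35. Over the 20 cytosolic probes the median of that middle difference was -0.03, with 8 above and 12 below 0, beside -0.01 for all probes.

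**Figure D3:**
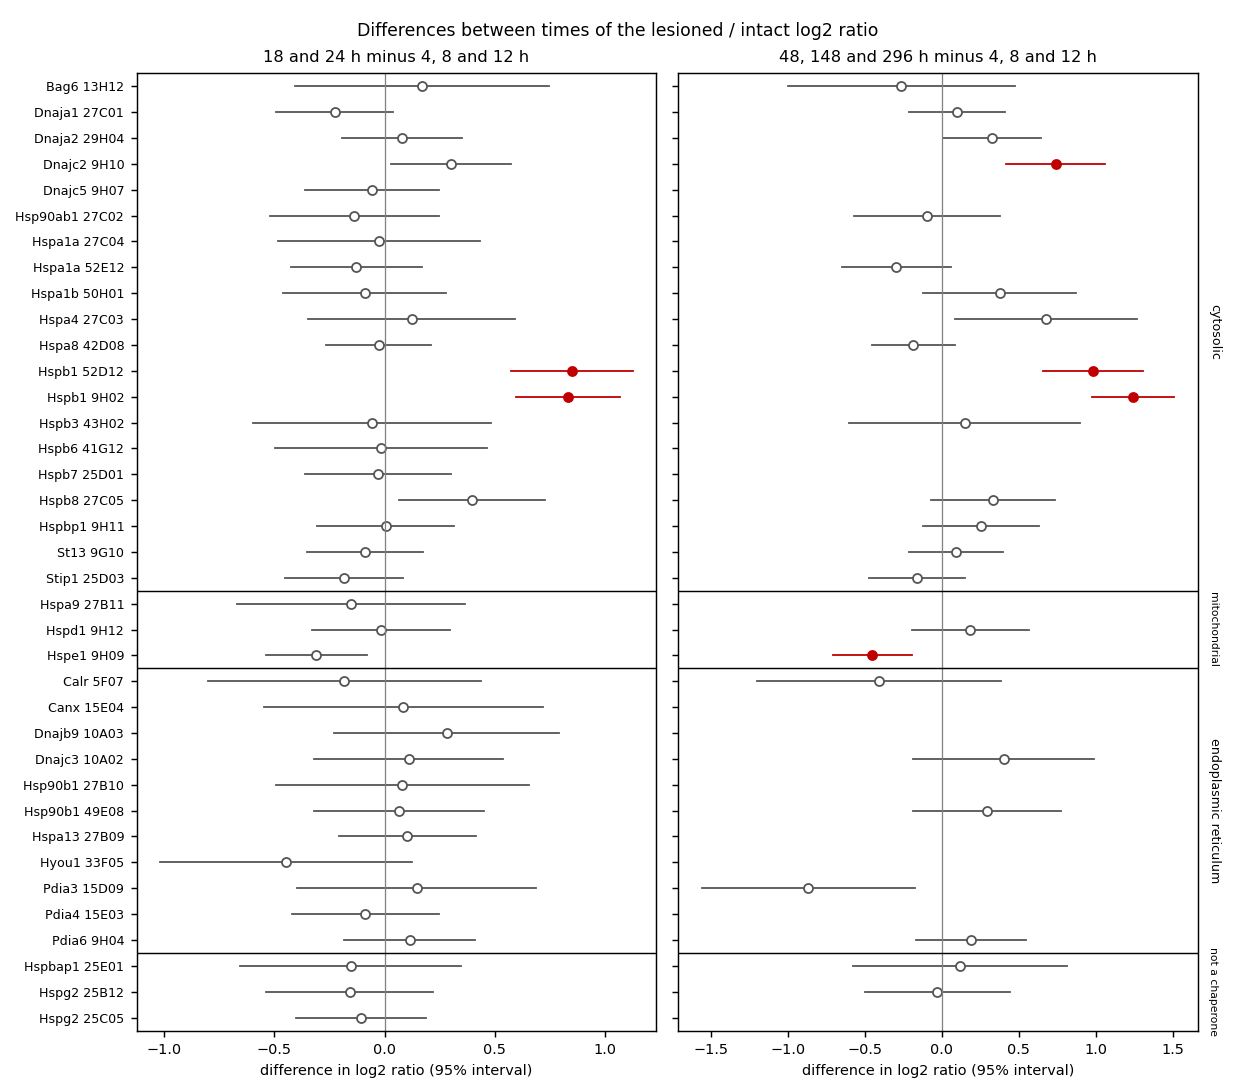
Difference in log2 ratio of lesioned to intact signal, with its 95% interval, for each member probe between 18 and 24 h and 4 to 12 h (left) and between 48 to 296 h and 4 to 12 h (right); red filled points passed an adjusted p of 0.05 and gaps mark probes with fewer than 2 arrays at a time of the contrast. Both Hspb1 probes lie far above 0 on each side, Dnajc2 and Hspe1 pass on the right only.

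The 3 mitochondrial members had 2 calls, both lower in lesioned ganglia or at late times. Hspe1, the HSP10 lid of the mitochondrial chaperonin, gave 1.16, 1.26 and 1.20 at 4 h, 0.939, 1.19 and 1.07 at 8 h, and 1.27, 1.20 and 1.26 at 12 h. It gave 0.796, 0.992 and 0.972 at 18 h, 1.03, 0.781 and 1.13 at 24 h, 0.742, 0.892 and 0.751 at 48 h, 0.888, 0.899 and 0.781 at 148 h, and 0.938 and 1.03 at 296 h. Late arrays were below 1 in 7 of 8 cases and early arrays above 1 in 8 of 9, and the groups overlapped at 8 and 296 h. Hspe1 fell late against early by 0.45 on the log2 scale (-0.45 ± 0.12, limma, adjusted p = 0.0296), and at 18 and 24 h it stood at -0.31 ± 0.11 against 4 to 12 h (adjusted p = 0.851). The late call was lost without replicate 1 at 48 h (-0.42, adjusted p = 0.112), replicate 1 or 3 at 148 h (-0.46 and -0.43, adjusted p = 0.064 and 0.0613) and replicate 1 or 2 at 296 h (-0.41 and -0.46, adjusted p = 0.161 and 0.0528). It was also lost without each replicate number in turn (-0.46 to -0.42, adjusted p = 0.127 to 0.267), with a weight for each array (adjusted p = 0.1), without the sparse arrays (0.255), with scaling (0.0732) and with a minimum of 1 array (0.0661), and the value kept its sign in all of these.

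Hspd1, the HSP60 barrel that pairs with Hspe1, lies head to head with it on chromosome 9, and the annotated genes overlap at their starts (Hspd1 chr9:64073610-64084332, minus strand; Hspe1 chr9:64084327-64087415, plus strand). The Hspd1 start used for its window lies 290 bases from that of Hspe1. Their RefSeq windows share 211 bases, and the window of Hspe1 (GRCr8, chr9:64084077-64084376, plus strand) is shown with capitals marking overlapping matches, on either strand, to 3 heat shock units in a row (GAANNTTC with a further GAA after 2 bases):
Hspe1: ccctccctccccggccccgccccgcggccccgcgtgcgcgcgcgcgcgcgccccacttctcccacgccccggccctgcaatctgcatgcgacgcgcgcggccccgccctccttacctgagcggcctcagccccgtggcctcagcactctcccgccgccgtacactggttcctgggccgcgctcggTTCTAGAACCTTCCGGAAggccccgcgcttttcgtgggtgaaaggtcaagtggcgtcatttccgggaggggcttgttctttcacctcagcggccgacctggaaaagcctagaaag
Hspd1 covered 0.918 to 1.65 on the arrays at 18 and 24 h, 0.756 to 1.69 at 4 to 12 h and 0.664 to 1.99 late. Its late minus early difference was log2 0.18 ± 0.18, with a 95% interval of -0.20 to 0.56, opposite in sign to that of Hspe1; the difference between these genes was not tested. Hspa9, the mitochondrial HSP70, read 0.391, 0.707 and 0.520 at 24 h, all below 1, but 0.761, 1.30 and 1.14 at 18 h. It was called lower at 24 h (-0.93 ± 0.27, limma, adjusted p = 0.0486), and the call was lost with any array of 24 h left out (-1.15 to -0.72, adjusted p = 0.0531 to 0.321).

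Matches to this form of 3 heat shock units were found in 4 of the 29 RefSeq promoter windows of 27 member genes (13.8%; Dnaja1, Hspa8, Hspd1 and Hspe1, the last pair in the same stretch), beside 0.798% of all 33469 promoters. The form of 2 units, GAANNTTC, was in 8 member windows (27.6%, against 8.59% of all) and TTCNNGAA in 7 (24.1%, against 8.77%); both lie within the longer form. Both strands were searched, and none of the 3 forms lay in the window of Hspa1a. The cyclic AMP response element TGACGTCA was found only for Hsp90ab1 among the members and in 1.83% of all promoters. These are matches of letters and not tests of binding, and a lack of matches holds only for the windows searched.

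ER members had no call other than at 24 h, when Calr fell. Calr, the calcium-binding lectin chaperone calreticulin, gave 0.364, 0.798 and 0.593 at 4 h, 1.05, 1.02 and 0.445 at 8 h, and 0.702, 0.839 and 0.433 at 12 h. It gave 0.418, 1.36 and 1.08 at 18 h, 0.457, 0.499 and 0.252 at 24 h, 0.417, 0.295 and 1.06 at 48 h, 0.297, 0.366 and 0.934 at 148 h, and 0.632 and 0.306 at 296 h. The 24 h arrays were all below 0.5, but single arrays at 4, 8, 12 and 18 h were about as low. At 24 h the effect was log2 -1.37 ± 0.32 (limma, adjusted p = 0.0157), which was lost without replicate 1 or 3 (-1.50 and -1.07, adjusted p = 0.0646 and 0.148), and its differences between times were not called (-0.18 ± 0.29 for 18 and 24 h, -0.41 ± 0.38 for late arrays, against 4 to 12 h).

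**Figure D4:**
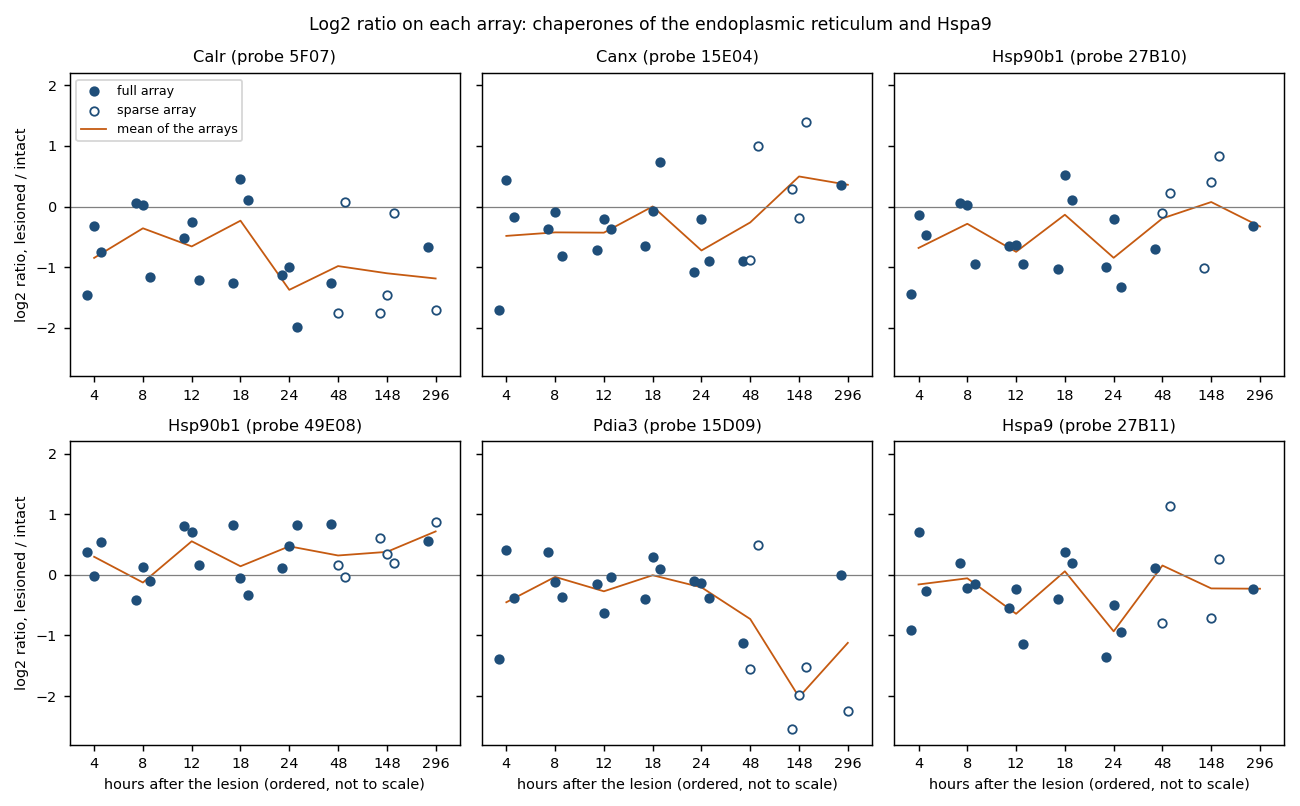
Log2 ratio of lesioned to intact signal on each array (points; filled for full arrays, open for sparse arrays) with the mean of the arrays (line) against h after the lesion, equally spaced, for Calr, Canx, both Hsp90b1 probes, Pdia3 and Hspa9. Arrays of 1 time spread widely, and single arrays such as replicate 1 at 4 h are low on 5 of these probes.

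Calr, Canx, Hsp90b1 probe 27B10, Pdia3 and Hspa9 were low together on some arrays, with 4 or 5 of them below log2 -0.5 on 4 of the 15 arrays up to 24 h; they were picked after their values were seen and so are described without a test. Replicate 1 at 4 h had all 5 below log2 -0.5 with a median of -1.43, whereas replicate 2 at 4 h had none and a median of 0.41. At 24 h the medians were -1.07, -0.21 and -0.94 for replicates 1, 2 and 3. The 3 arrays of 4 h thus lay on both sides of 0, while those of 24 h did not. On the sparse arrays of 148 h the probes spread widely, with replicate 3 covering -1.52 to 1.39. Hsp90b1, the HSP90 of the ER also known as GRP94, was again read unlike by its 2 probes, which had the same sign on 5 of 22 arrays: at 24 h 27B10 stood at -0.84 ± 0.30 (adjusted p = 0.109) and 49E08 at 0.47 ± 0.20 (adjusted p = 0.193). Only 5 of the 11 ER probes could be tested late against early. Pdia3, a disulfide isomerase that works with calreticulin and calnexin, was the lowest of these, at -0.87 ± 0.33 (limma, adjusted p = 0.117). Of its late arrays 7 of 8 were below 0, at log2 -2.55 to 0.49, with early arrays at -1.39 to 0.41. The sparse arrays of 148 h read 0.171, 0.253 and 0.349 on this probe. Single arrays at 48 and 296 h were about as low, at log2 -1.55 and -2.24. Hyou1, an ER HSP70 exchange factor, was lowest at 18 and 24 h against 4 to 12 h, at -0.45 ± 0.27, and was not called.

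Dnajb9 and Dnajc3, ER cochaperones of the HSP70 BiP that are induced by the unfolded protein response, passed no test. Dnajb9 lay above the intact level on 17 of 21 arrays and Dnajc3 on 13 of 22. Dnajb9 read 1.42, 1.72 and 1.80 at 18 h and 1.20, 1.40 and 1.75 at 24 h, against 0.923, 0.940 and 1.57 at 4 h, 1.01, 1.43 and 2.42 at 8 h and 0.723, 1.72 and 1.34 at 12 h. All 6 arrays at 18 and 24 h were above 1 and 6 of 9 early arrays were, so the groups overlapped, with a difference of log2 0.28 ± 0.24. Against intact ganglia it stood at 0.60 ± 0.26 at 8 h (unadjusted p = 0.0367), 0.71 ± 0.26 at 18 h (unadjusted p = 0.0157) and 0.94 ± 0.41 at 296 h (unadjusted p = 0.0377), with adjusted p = 0.272 to 0.319. Dnajc3 read 0.987, 0.853 and 1.39 at 18 h and 1.48, 0.936 and 1.32 at 24 h, against 0.657 to 1.34 on the early arrays. Its difference was 0.11 ± 0.20 for 18 and 24 h and 0.40 ± 0.28 for late arrays, where replicate 3 at 48 h, a sparse array, stood at 4.59 and the others at 0.669 to 1.71.

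The ER stress element, CCAAT and CCACG with 9 bases of any kind between them, was found on either strand in 4 of 29 member windows (13.8%; Calr, Canx, Dnajc3 and Hsp90b1), beside 0.0657% of all 33469 promoters. The windows of Calr (chr19:40213117-40213416, plus strand), Hsp90b1 (chr7:23012244-23012543, minus strand) and Dnajc3 (chr15:102432417-102432716, plus strand), from RefSeq on GRCr8, are shown because these ER members share the motif, which is in capitals:
Calr: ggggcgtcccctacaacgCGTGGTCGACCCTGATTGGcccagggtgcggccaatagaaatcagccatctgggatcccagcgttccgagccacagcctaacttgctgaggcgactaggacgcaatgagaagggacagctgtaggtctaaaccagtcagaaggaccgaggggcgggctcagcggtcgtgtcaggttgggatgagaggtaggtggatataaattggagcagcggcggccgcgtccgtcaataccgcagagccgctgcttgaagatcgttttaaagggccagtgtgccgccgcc
Hsp90b1: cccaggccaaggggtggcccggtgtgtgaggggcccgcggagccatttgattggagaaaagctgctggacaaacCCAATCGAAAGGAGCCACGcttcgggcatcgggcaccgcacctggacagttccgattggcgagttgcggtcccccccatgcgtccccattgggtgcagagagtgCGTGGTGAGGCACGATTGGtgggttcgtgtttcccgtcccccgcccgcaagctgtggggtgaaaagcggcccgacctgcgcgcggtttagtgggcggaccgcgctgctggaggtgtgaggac
Dnajc3: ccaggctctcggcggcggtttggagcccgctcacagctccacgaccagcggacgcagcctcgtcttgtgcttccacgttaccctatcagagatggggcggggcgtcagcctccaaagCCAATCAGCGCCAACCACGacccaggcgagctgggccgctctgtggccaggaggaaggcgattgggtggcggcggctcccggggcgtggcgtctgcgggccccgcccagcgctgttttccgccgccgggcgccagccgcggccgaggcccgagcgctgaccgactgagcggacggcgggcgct
None was found in the windows of Dnajb9, Hyou1 or Pdia4. The Dnajb9 window (chr6:67002002-67002301, minus strand) lies inside the annotated gene (chr6:66997842-67007371), so other starts of that gene were not searched. At 24 h Calr stood at log2 -1.37, Hsp90b1 at -0.84 or 0.47 by probe, Canx at -0.72 ± 0.33 and Dnajc3 at 0.29 ± 0.22, so values of members that hold the motif lay on both sides of 0. The disulfide isomerases Pdia4 and Pdia6 and the HSP70 family member Hspa13 stood between -0.09 and 0.11 in the difference of 18 and 24 h against 4 to 12 h, and none was called.

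Genes of the same pathways outside the chaperone families were counted in the same fit. Of 9 heat shock response and cochaperone genes on the array, none was called in either difference between times. At 48 h 2 of 9 probes were higher, beside 11.3% of all probes called. They were Hsf2, a heat shock factor (log2 1.80 ± 0.32, limma, adjusted p = 0.00191), and Sgta, a small glutamine-rich cochaperone (0.83 ± 0.23). At 24 h 1 of 9 was higher, beside 6.59% of all probes called, Tcp1, a subunit of the cytosolic chaperonin (0.57 ± 0.17). Hsf1, the main heat shock factor, and its known targets Cryab and Hmox1 were called nowhere; at 24 h they stood at -0.17 ± 0.31, -0.16 ± 0.19 and -0.16 ± 0.28. The unfolded protein response list had 19 genes and 20 probes, with 0 of 20 called at 18 and 24 h against 4 to 12 h (0.162% of all probes) and 1 of 15 late against early (7.72% of all probes), Uggt1, a glucosyltransferase that checks glycoprotein folding (0.93 ± 0.23, adjusted p = 0.0169). At 148 h 3 of 18 of its probes were higher, for Uggt1 (1.98 ± 0.43), the disulfide isomerase P4hb (1.71 ± 0.44) and the stress factor Nfe2l2 (2.47 ± 0.64), beside 5.87% of all probes. At 48 h 2 of 20 were higher, beside 11.3% of all probes called, so this share was near the background. They were Ddit3, also called CHOP (1.01 ± 0.28, limma, adjusted p = 0.0282), and the collagen chaperone Serpinh1 (1.03 ± 0.28). At 24 h the translocon subunit Sec61a1 was lower (-1.24 ± 0.30), while the 2 probes of Atf4 read 1.13 ± 0.13 (52H08, adjusted p = 5.41e-05) and -0.26 ± 0.15 (7D01) at 24 h. For 14 genes of mitochondrial import and quality control, 0 of 14 probes were called in the middle difference, beside 0.162% of all probes. Late against early 2 of 11 were called, beside 7.72% of all probes, Pmpcb and Tomm70, both at 1.47 (SE 0.31 and 0.30). At 148 h 1 of 12 was called, beside 5.87% of all probes, Tomm70 (3.34 ± 0.62).

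Of the probes matched only by their letters, Hspg2 25B12 fell at 24 h (log2 -1.17 ± 0.20, limma, adjusted p = 0.00183), at ratios of 0.255, 0.595 and 0.577. It lay below 0 on 22 of 23 arrays, and its differences between times were -0.16 ± 0.18 and -0.03 ± 0.22. The other Hspg2 probe, 25C05, had the same sign on 20 of 22 arrays but did not move with 25B12 across them (Pearson r = -0.07). Probe 25C05 stood at -0.38 ± 0.15 at 24 h and was no higher at 12 h (-0.38 ± 0.15). Hspbap1 was called nowhere, at -0.15 ± 0.24 and 0.12 ± 0.33 in the differences. Leaving these 3 probes aside, the chaperone calls at 24 h were 2 higher, both Hspb1, and 4 lower.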

How the data were processed

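The files hold 1 value per probe and array, a ratio of the Cy5 to the Cy3 signal as deposited by the authors from spotted oligonucleotide arrays with dendrimer labelling. The scanner settings, background correction and normalization behind these ratios are not given in the sources used here. Intensities were left aside. The direction, lesioned over intact, was taken from the dyes in the labels. Ratios were turned into log2 values here. Gene symbols came from the platform annotation, under which 4423 of 5088 probes had 1 symbol, 663 none and 2 several.

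Each probe was fitted across all 23 arrays with limma 3.58.1 (R 4.3.3), estimating 1 mean per time and using 1 weight for full and another for sparse arrays (those with more than 200 missing probes; weights 1.50 and 0.315). A probe was tested at a time, or in a contrast, only with at least 2 arrays at each time involved, and p-values were adjusted over all probes tested (Benjamini-Hochberg). The second array at 296 h has a time label of 294 h and was kept under its title. Contrasts were each time against intact, 18 and 24 h minus 4, 8 and 12 h, and 48, 148 and 296 h minus 4, 8 and 12 h. On simulated data for 5088 probes, 5.03% of the calls in the first of these differences and 4.68% in the second were false, and 63.3% and 52.2% of probes changed by 1 log2 unit were recovered. The simulated noise was independent between arrays and was set larger on the sparse arrays. The changed probes were shifted by the same amount at every time from 18 h on. These shares hold for that setting only and may differ in the real series. A gain from the weights was built in, and without them 71.7% of simulated calls at 148 h were false.

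Members and gene lists were chosen with earlier results of these data known. Named were the members called in any test, the markers Hspb1, Hspe1, Dnajb9 and Dnajc3, the extremes of each compartment in each difference, and the probes most like Hspb1 over the time means; other members are named for completeness. Alternatives were equal weights, a weight for each array, full arrays only, median centring, scaling, a minimum of 1 array, averaging probes by gene, the replicate number as a block, and leaving out arrays. Promoters came from RefSeq (GRCr8), and 27 of 33 member genes matched, with 29 windows. Figures were drawn with matplotlib 3.10.9 and pandas 2.3.3 in Python 3.11.15.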

Additional observations from a re-analysis of the deposited data

Results flagged for a closer look

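The effect of the lesion differed between times, by limma's test of the difference itself, for 3 members. Hspb1 was higher at 18 and 24 h than at 4 to 12 h by log2 0.85 on probe 52D12 and 0.83 on probe 9H02, with 6 of 6 arrays of 18 and 24 h above all 9 early arrays on each. Late against early arrays, it was higher by 0.98 on 52D12 and 1.24 on 9H02. Dnajc2 was higher late than early by 0.74. Hspe1 was lower late than early, with a difference of -0.45. Groups of at most 3 arrays were too small to test for single outlying arrays.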

How the results depend on the processing

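Of 23 calls of members, the direction held under every alternative run, and the call held in 149 of 182 comparisons with another setting and in 136 of 218 with arrays left out. With equal weights 0 members were called at 8 h, 1 at 18 h, 3 at 24 h, 8 at 148 h, 4 at 296 h and 1 at 18 and 24 h against 4 to 12 h. A weight for each array gave 3 at 12 h and 5 at 148 h, median centring 1 at 148 h, and a minimum of 1 array 1 at 148 h. Scaling of the arrays gave 2 at 12 h, 4 at 24 h, 2 at 48 h, 1 at 18 and 24 h against 4 to 12 h and 2 late against early. Averaging probes by gene gave 0 at 8 h, 1 at 18 h, 4 at 24 h, 2 at 48 h, 1 at 148 h, 1 at 296 h and 1 at 18 and 24 h against 4 to 12 h, partly since it joins both Hspb1 probes. Leaving out arrays gave 0 to 1 calls at 4 and 8 h, 0 at 12 and 296 h, 0 to 2 at 18 h, 1 to 4 at 24 and 48 h, 0 to 2 at 148 h, 0 to 2 at 18 and 24 h against 4 to 12 h, and 1 to 5 late against early. Dnajc3 at 18 and 24 h against 4 to 12 h, at 0.11, ranged over -0.0001392 to 0.303 with a replicate number left out. Scaling took Hspb1 52D12 late against early to 0.61 (adjusted p = 0.138). The causes were not tested. Full arrays alone gave no value at 148 h and ended the calls of Hspb1 9H02 at 18 h (adjusted p = 0.054), Hspa9 at 24 h (0.0679), and Hspe1 (0.255) and Dnajc2 (0.113) late against early. With the replicate number as a block, the counts were 1 at 8 h, 3 at 18 h, 6 at 24 h, 4 at 48 h, 2 at 148 h, 2 at 18 and 24 h against 4 to 12 h, and 4 late against early, with none at the other times; only Hsp90ab1 at 24 h was lost. Same-numbered arrays had deviation correlations of -0.141 to 0.117 (median -0.006), and 7 of 23 arrays correlated best with their own number, so the numbers were not taken to pair the arrays.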
